A study of Arabidopsis thaliana with 18 samples.

Results

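The genes of the plastid genome were followed in rosette leaves of Arabidopsis thaliana, on 18 ATH1 arrays from Affymetrix. They were chosen by annotation: a probe set (the set of short probes that stands for a transcript on the array) was a member where the platform annotation gave it 1 gene and that gene carried a locus tag of the plastid genome. This gave 69 members among 22746 probe sets. Of these, 47 encode parts of the photosynthetic machinery, 20 encode parts of the plastid gene expression machinery (RNA polymerase, ribosomal proteins and the maturase matK), and 2, accD and clpP, have other functions. A further 7 probe sets were annotated to both copies of a duplicated plastid gene, so ndhB, rpl2, rps12, ycf1 and ycf2 were not among the members.

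The plastid genome keeps a small set of genes from the cyanobacterial ancestor, mostly for photosystem I (psa), photosystem II (psb), the cytochrome b6f complex (pet), the ATP synthase (atp), the NDH complex (ndh), Rubisco (rbcL) and the machinery that expresses them (rpo, rpl, rps). A bacterial-type polymerase, built from the plastid rpo products and steered by nuclear sigma factors, transcribes chiefly photosynthesis genes, while a phage-type polymerase made in the nucleus transcribes rpoB, accD and clpP among others. Neighbouring genes are often transcribed together and cut apart later. Plastid messengers carry no stable poly(A) tail, and short A-rich tails mark plastid RNA for decay. The labels state that the cDNA was primed with oligo-dT from total RNA, so the values below are of plastid RNA as that priming captured it, which was not set against another method here.

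Plants were 4 weeks old and grown on soil, and 3 biological samples were taken for each of 6 groups. The tga2tga3tga5tga6 mutant, titled 4tga, lacks the TGA transcription factors it is named after, which act in defence and detoxification responses. The sid2-2 mutant lacks isochorismate synthase, the enzyme for most stress-induced salicylic acid. The third genotype was the wild type Col0. Each genotype was sprayed with safener, a formulation of mefenpyr (5 mM) and isoxadifen (7.2 mM) of the kind that protects crops from herbicide injury, or with mock, which held the solvent DMSO. The sources used here do not say how long after spraying leaves were taken, in which ecotype the mutants were made, or whether the mock spray held the formulation's emulsifier. The values are deposited intensities on a linear scale, with the median of the listed values at 200 on every array, and their precision is limited by 3 arrays a group. Intensities of different probe sets are not a measure of which gene has more RNA.

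Across all probe sets, arrays of 1 group correlated at r = 0.977 to 0.994, and across the members at r = 0.785 to 0.995 (across genes, which are not independent replicates). Between 14627 and 16408 probe sets were listed per array, lowest on Col0 safener replicate 1 and highest on sid2-2 mock replicate 3. The leaf marker LHCB4.2, an antenna protein, lay between 1873 and 4440 and the root marker PYK10 between 228 and 630.0. The other leaf and root markers and the flower markers chosen were not analysed here.

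The plastid genes were among the brighter probe sets. Of the 69 members, 68 were listed on all 18 arrays and psbA on 17. Their median intensity was 1046, against 244 over the 13433 probe sets listed on all arrays, and 37 members had a median over 1000. Each group of genes had bright and dim probe sets. In photosystem I, psaB (a reaction centre protein) had the highest median, 4726, and psaC (an iron-sulfur subunit) the lowest, 357. In photosystem II these were psbM (a small subunit, 3824) and psbT (a small subunit, 24.4), and psbA, for the D1 protein, had 3783. The cytochrome b6f complex spanned petB (cytochrome b6, 3313) to petG (139), the ATP synthase atpB (beta subunit, 4250.0) to atpI (135), and the NDH complex ndhI (4611) to ndhF (45.4). Among gene expression genes, rps4 (2730.2) was highest and rps16 (89.1) lowest of the small ribosomal subunit, rpl36 (1757) and rpl14 (383) of the large subunit, and rpoA (1762) and rpoC2 (220.0) of the polymerase. The probe set for rbcL, the large subunit of Rubisco, had a median of only 88.5, in a gene known for abundant messenger. It is 1 of the 4 members with a median under 100, with psbT, ndhF and rps16.

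The largest differences among the plastid genes lay between arrays of the same group. The median of the members' within-group SD was 0.37 on the log2 scale, against 0.15 over all 13433 probe sets listed throughout, 0.34 for photosynthesis and 0.45 for gene expression members. Without Col0 safener replicate 1 and sid2-2 mock replicate 3 these medians were 0.31 for the members and 0.13 for all. The gene that varied most was psbA. Its intensity was 4106, 3936 and 4359.7 on the safener arrays of 4tga, against 4446, 4987 and 4544 on the mock arrays of 4tga. It was 124, 3783 and 4148 on the safener arrays of sid2-2, against 3098, 2835 and 53.0 on the mock arrays of sid2-2. On the safener arrays of Col0, psbA was blank on replicate 1, 3522 on replicate 2 and 234 on replicate 3, against 4076, 3440.3 and 3529.8 on the mock arrays. On 4 arrays psbA was thus blank or far below the lowest of the other 14 arrays, 2835: Col0 safener replicates 1 and 3, sid2-2 mock replicate 3 and sid2-2 safener replicate 1. The 4 arrays belong to 3 groups, of both treatments and 2 genotypes.

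**Figure D1:**
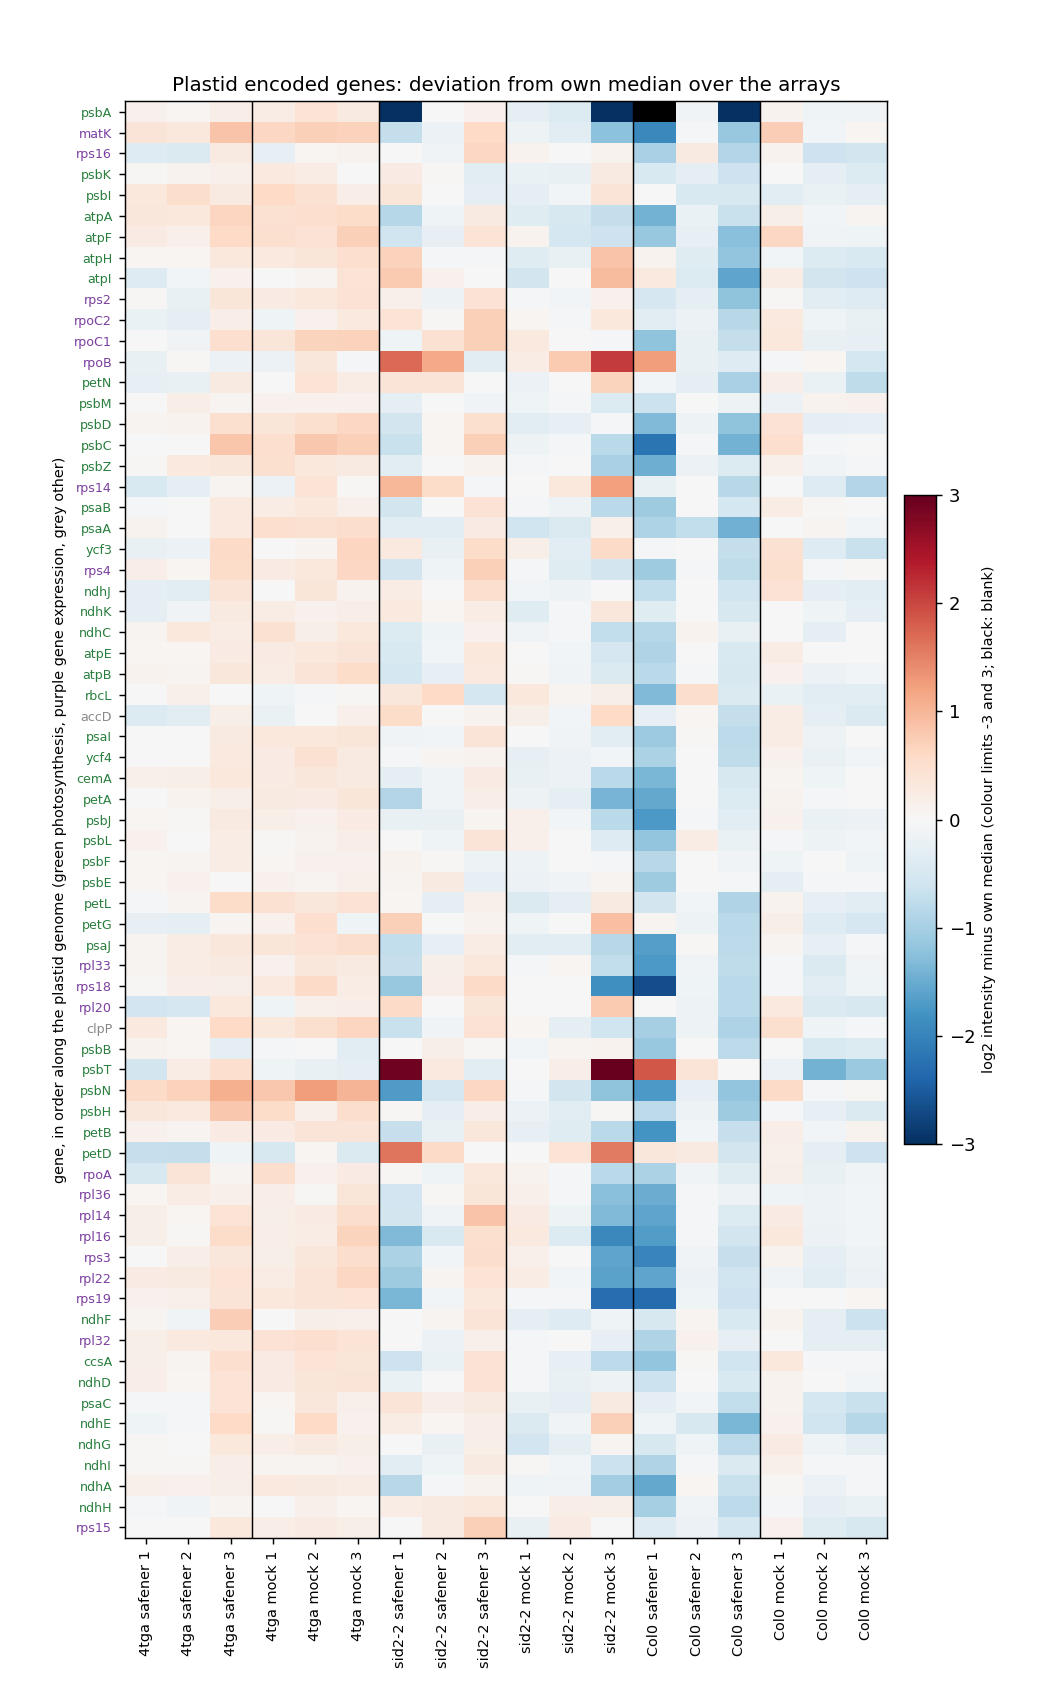
Each row is a plastid gene, in order along the plastid genome, and each column an array; colour gives log2 intensity minus the gene's own median over the arrays (blue lower, red higher, limits at -3 and 3, black blank). Col0 safener 1, sid2-2 mock 3 and sid2-2 safener 1 share a pattern of raised psbT and rpoB and lowered rps18, rpl36, rpl14, rpl16, rps3, rpl22 and rps19. Other ribosomal protein genes differ, with rps14 and rpl20 raised on both of these sid2-2 arrays. Col0 safener 3 is low for 68 of 69 members, and the 4tga mock arrays are slightly raised almost throughout.

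On 3 of these 4 arrays the other members moved apart in the same way. With each gene set to its own median over the arrays, the deviations of the 68 members listed throughout correlated at r = 0.95 between sid2-2 mock replicate 3 and sid2-2 safener replicate 1, at 0.92 between Col0 safener replicate 1 and sid2-2 mock replicate 3, and at 0.90 between Col0 safener replicate 1 and sid2-2 safener replicate 1. Over all 13433 probe sets the same pairs gave r = 0.23, 0.08 and 0.46. These correlations are across genes, are given without a test, and the 3 arrays were singled out after their values were seen. On all 3 arrays 6 of the 68 members lay above their own median (atpH, atpI, rpoB, petG, psbT and petD), 36 lay below it and 26 were mixed. The 6 had a median intensity of 193 and the 36 one of 1325, and the deviation of a member on each of the 3 arrays was negatively correlated with its level across the members (r = -0.46 on Col0 safener replicate 1, -0.53 on sid2-2 mock replicate 3 and -0.55 on sid2-2 safener replicate 1). The next most negative were sid2-2 safener replicate 2 (-0.40) and sid2-2 mock replicate 2 (-0.31). The deviations on sid2-2 safener replicate 2 correlated at 0.58 with sid2-2 safener replicate 1 and at 0.53 with sid2-2 mock replicate 3. For sid2-2 mock replicate 2 these values were 0.58 and 0.46. With Col0 safener replicate 1 they correlated at 0.42 (sid2-2 safener replicate 2) and 0.40 (sid2-2 mock replicate 2), and with each other at 0.80. Arrays outside the pattern also reached such values, as 4tga mock replicate 1 and 4tga safener replicate 2 at 0.75. Deviations common to sid2-2 arrays are thus not separated from a share in the pattern.

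The gene most raised on the 3 arrays was psbT, named here after its values were seen. Its intensity was 88.5 on Col0 safener replicate 1, 226 on sid2-2 mock replicate 3 and 184 on sid2-2 safener replicate 1. On the other 15 arrays it ran between 9.10 and 34.7 with a median of 22.4. rpoB, for the beta subunit of the bacterial-type polymerase, was at 585, 1059 and 803 on the same 3 arrays, against 169.6 to 545 (median 236) on the other 15. These were the only 2 of the 68 members for which all 3 arrays lay above all other 15. All 3 lay below all other 15 for 16 members, 9 of them photosynthesis and 7 gene expression genes. The 7 were rps18, rpl36, rpl14, rpl16, rps3, rpl22 and rps19. For rps19, a small subunit protein also named after its values were seen, the intensity was 185, 189 and 360.1 on the 3 arrays, against 604 to 1236 (median 964) on the other 15. The photosynthesis genes among the 16 included atpA (ATP synthase alpha subunit), psaB and petA (cytochrome f). The counts of members wholly above or below the other 15 arrays were not made over all probe sets, so no background share stands beside them.

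Some neighbouring genes that are commonly transcribed as 1 unit differed in their deviations on these 3 arrays. In the psbB unit, psbT stood 1.86 (log2) above its own median on Col0 safener replicate 1, 3.21 above on sid2-2 mock replicate 3 and 2.91 above on sid2-2 safener replicate 1, while petB stood at -1.80, -0.80 and -0.70. In the rpoB unit, rpoB stood 1.25, 2.105 and 1.71 above its median and rpoC1, for another polymerase subunit downstream, at -1.21, -0.05 and -0.13. In the unit of atpI, atpH, atpF and atpA, atpI stood at 0.29, 0.94 and 0.79 and atpA at -1.41, -0.72 and -0.86. In the psaA unit, rps14 stood at -0.22, 1.23 and 0.99 and psaB at -1.06, -0.81 and -0.55. The pair atpB and atpE, in contrast, kept within 0.1 of each other on each of the 3 arrays. The psbD unit ran from -0.66 (psbC) to -0.34 (psbZ) on sid2-2 safener replicate 1, but from -2.18 (psbC) to -1.33 (psbD) on Col0 safener replicate 1. On sid2-2 mock replicate 3 the ndhC unit ran from -0.74 (ndhC) to 0.33 (ndhK) and the psbE unit from -0.82 (psbJ) to 0.07 (psbE). All members of the ribosomal protein unit lay low on sid2-2 mock replicate 3, from -0.82 (rpoA) to -2.29 (rps19). The gene psbN lies on the opposite strand within the psbB unit, and stood at -1.71, -1.22 and -1.69.

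Col0 safener replicate 3 differed from those 3 arrays. There 68 of 69 members lay below their own median, with psbT at 0.02, rpoB at -0.38 and rps19 at -0.61. Units differed within themselves there too, the atpI unit from -1.58 (atpI) to -0.68 (atpA) and the psaA unit from -1.44 (psaA) to -0.52 (psaB). Members more than 1 log2 unit below their median numbered 12 on that array, 31 on Col0 safener replicate 1, 12 on sid2-2 mock replicate 3 and 6 on sid2-2 safener replicate 1, and at most 1 on any other array. The array's own controls did not set the 4 arrays apart in 1 direction. The difference between the 3′ and 5′ actin probes ran from 2.06 to 2.79 (log2) over all arrays and was 2.11, 2.54, 2.17 and 2.15 on Col0 safener replicate 1, sid2-2 mock replicate 3, sid2-2 safener replicate 1 and Col0 safener replicate 3. The control probe set for 5S ribosomal RNA, which like plastid RNA has no stable poly(A) tail, was at 6.18, 9.24 and 8.32 on the first 3 of these and blank on Col0 safener replicate 3, in a range of 5.01 to 9.24. The part of RNA quality, labelling or leaf state in these 4 arrays was not tested.

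**Figure D2:**
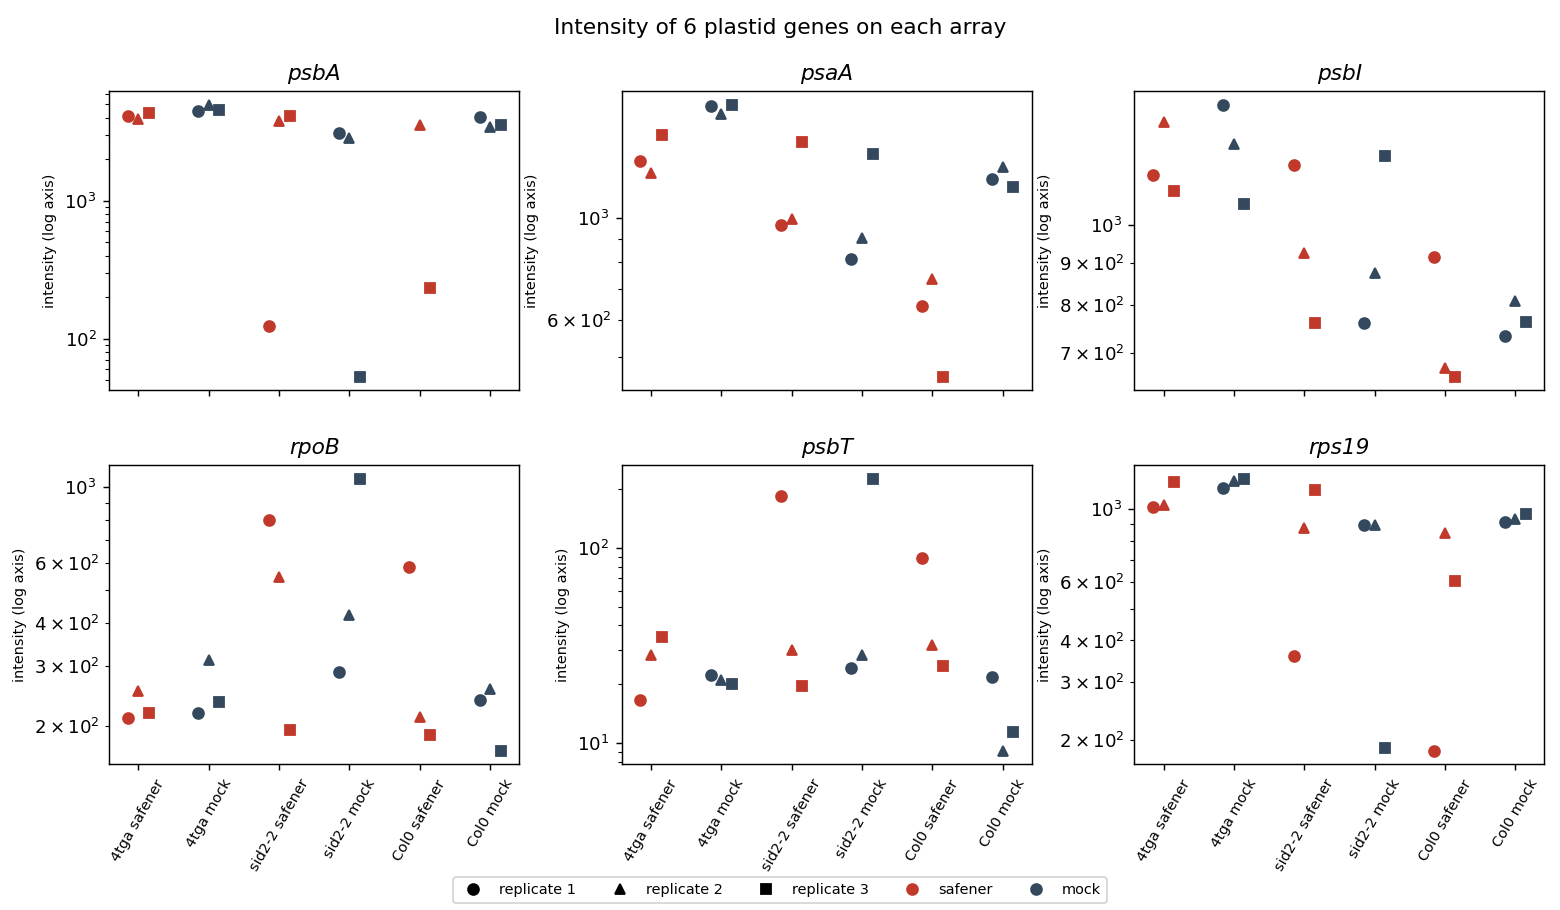
Intensity (log axis) of psbA, psaA, psbI, rpoB, psbT and rps19 on each array, by group, with safener red and mock blue-grey and the replicate number given by the symbol. psbA is missing on Col0 safener replicate 1, where it was blank, and the arrays low for psbA in sid2-2 are those high for rpoB and psbT and low for rps19.

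Photosynthesis and gene expression genes were then compared as classes, as the difference between the mean log2 intensity of 46 photosynthesis members and that of 20 gene expression members on each array. Only members listed on all 18 arrays entered. The photosynthesis gene psbA was thus left out, and its low values are not part of this measure. The difference was 0.59, 0.57 and 0.55 on the safener arrays of 4tga, against 0.58, 0.51 and 0.44 on its mock arrays. It was 0.75, 0.46 and 0.28 on the safener arrays of sid2-2, against 0.32, 0.40 and 0.99 on its mock arrays. It was 0.85, 0.56 and 0.52 on the safener arrays of Col0, against 0.51, 0.57 and 0.54 on its mock arrays. The 3 arrays with the shared pattern were the 3 highest of 18, and the other 15 lay between 0.28 and 0.59. Group means were 0.57 ± 0.02 with safener and 0.51 ± 0.07 with mock in 4tga, 0.49 ± 0.24 and 0.57 ± 0.37 in sid2-2, and 0.64 ± 0.18 and 0.54 ± 0.03 in Col0 (SD, n = 3 each). Without Col0 safener replicate 1 the Col0 safener mean was 0.54 ± 0.03, and without sid2-2 mock replicate 3 the sid2-2 mock mean was 0.36 ± 0.06 (SD, n = 2 each). With all arrays, safener and mock overlapped in each genotype, and the mock arrays of each mutant overlapped those of Col0, so none of these 5 comparisons gave a difference larger than the spread between arrays. Without sid2-2 mock replicate 3, the mock arrays of sid2-2 (0.32 and 0.40) lay below those of 4tga (lowest 0.44) and of Col0 (lowest 0.51), with 2 sid2-2 arrays and no test.

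Set against the other arrays of its own group, the gene expression mean was the lower one on each of these 3 arrays. On sid2-2 mock replicate 3 gene expression members averaged 8.74 (log2), with 9.34 and 9.26 on replicates 1 and 2, while photosynthesis members averaged 9.73, with 9.66 on both other replicates. On sid2-2 safener replicate 1 gene expression members averaged 9.02, with 9.34 and 9.72 on replicates 2 and 3, and photosynthesis members 9.77, with 9.80 and 10.00. On Col0 safener replicate 1 both classes were low, at 8.16 for gene expression and 9.01 for photosynthesis members, below the lowest of the 15 arrays other than these 3 (8.61 and 9.13). The means of both classes on the 2 sid2-2 arrays lay inside the range of those 15 arrays.

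**Figure D3:**
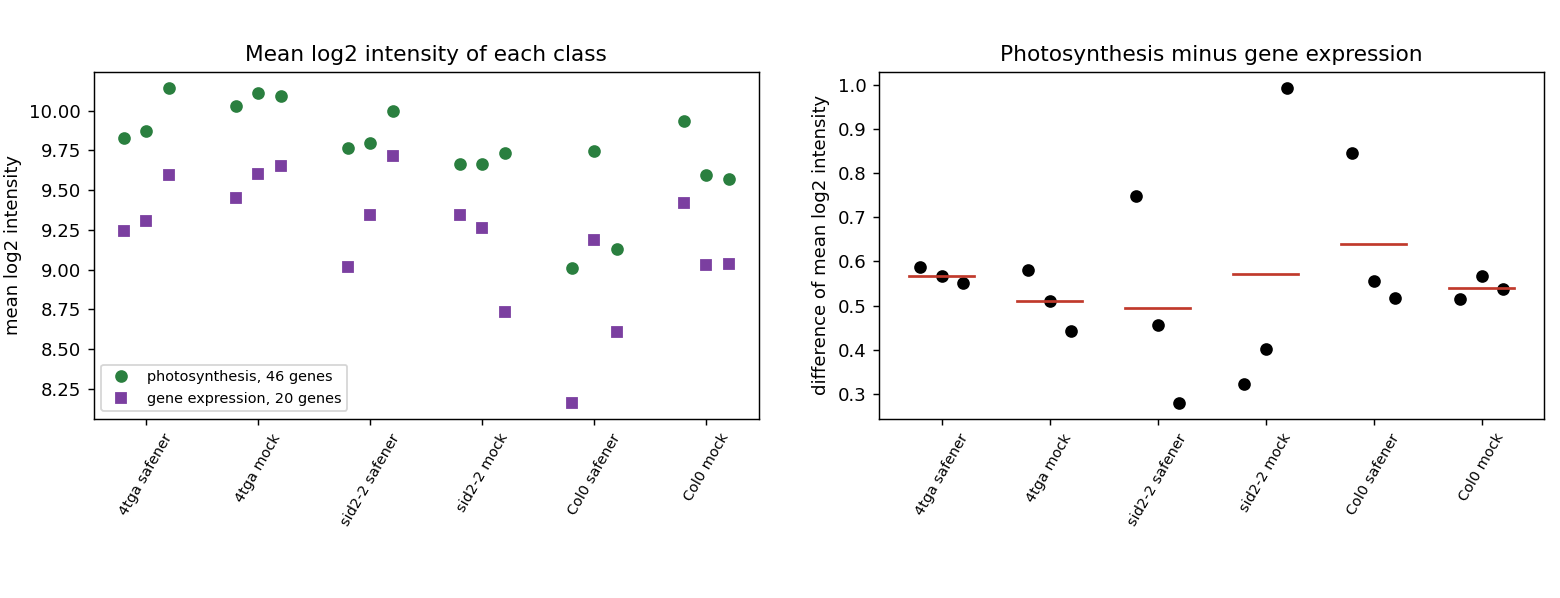
Left, mean log2 intensity of 46 photosynthesis genes (green circles) and 20 gene expression genes (purple squares) on each array; right, their difference on each array (points) with the group mean (red line). The highest differences, 0.99, 0.85 and 0.75, belong to 1 array each of sid2-2 mock, Col0 safener and sid2-2 safener.

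The first comparison of groups asked how the safener spray changed plastid gene RNA in wild type leaves. Most plastid genes lay lower with safener, but few passed the test: 16 of 69 members fell and 0 rose (limma, Benjamini-Hochberg adjusted p under 0.05 over all 14704 probe sets tested), where 17.3% of all probe sets tested were called lower and 14.9% higher. The share of members that fell is thus near the background, and in whole leaves fewer plastids or cells and less RNA per plastid cannot be told apart. The median log2 change was -0.43 over the members, -0.40 over the photosynthesis and -0.51 over the gene expression members, against -0.06 over all probe sets, and 65 of 69 members lay below zero. Without Col0 safener replicate 1 and sid2-2 mock replicate 3, only psaA and atpF were called lower and 0 higher, where 13.7% and 16.7% of all probe sets were, and the median was -0.27 (-0.27 for photosynthesis and -0.26 for gene expression). Without all 4 arrays listed above, which leaves 1 safener array of Col0 that is assumed to vary like the others, psaA was called lower and psbT higher, where 5.02% and 11% of all probe sets were, and the class medians were -0.0045 for photosynthesis and -0.02 for gene expression. By leaving out 1 array at a time, the count of members that fell was 1, 14 and 10 without mock replicates 1, 2 and 3, and 2, 39 and 6 without safener replicates 1, 2 and 3. In the same fits 13%, 16.4% and 13% of all probe sets were called lower without the mock replicates, and 11.7%, 20.7% and 13.4% without the safener replicates.

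The gene whose call did not depend on 1 array was psaA, for a reaction centre protein of photosystem I. Its intensity was 642, 738 and 452 on the safener arrays of Col0, against 1209.8, 1290.3 and 1166 on the mock arrays. All 3 safener arrays lay below all 3 mock arrays, and the fall was 2.04-fold (log2 -1.03, SE 0.19, limma adjusted p = 0.000429). Without each array in turn the change stayed between -1.18 and -0.83, with a highest adjusted p of 0.00375, and it was -1.08 (adjusted p = 0.000287) without Col0 safener replicate 1 and sid2-2 mock replicate 3 and -0.73 (adjusted p = 0.0103) without the 4 arrays. The other large subunit, psaB, is transcribed with psaA, and its intensity was 2263, 4758 and 3293 with safener, against 5549, 4869 and 4743 with mock (log2 -0.62, adjusted p = 0.0579). On safener replicate 2, the one without a plastid-wide shift, psaA was low and psaB was not.

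The other called photosynthesis genes were atpF, atpA and atpE of the ATP synthase, psbC, psbD, psbN and psbZ of photosystem II, petB of the cytochrome b6f complex, psaI of photosystem I, ycf4, a photosystem I assembly factor, and ndhH of the NDH complex. psbC, for the CP43 antenna protein, was 322, 1398 and 549.8 with safener, against 2071, 1400.4 and 1447 with mock (log2 -1.36, SE 0.39, limma adjusted p = 0.0128). Safener replicate 2 lay just below the lowest mock array, while replicates 1 and 3 were far lower, and without the 2 arrays the change was -0.88 (adjusted p = 0.0807). psbD, for the D2 protein, was 501, 1135 and 541 with safener, against 1703, 1054 and 1070.1 with mock (log2 -0.88, adjusted p = 0.0169), with safener replicate 2 inside the mock range. atpF, for a stator subunit, was 199, 369.9 and 184 with safener, against 671, 405 and 398 with mock (log2 -0.997, adjusted p = 0.00901). It was called without the 2 arrays (adjusted p = 0.0424), but not without mock replicate 1 (0.0622), without safener replicate 3 (0.0515) or without the 4 arrays (0.478). petB had log2 -0.93 and psbN, which acts in photosystem II assembly, -1.24. Across the 16 the log2 change ran from -1.36 to -0.46 with all arrays, from -1.08 to -0.28 without the 2 arrays and from -0.73 to 0.07 without the 4.

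Among gene expression genes, matK, rps4 and rpoC1 were called, and of the 2 other genes clpP, for the catalytic subunit of the plastid Clp protease. matK, for the maturase that helps splice plastid introns, was 222, 813 and 391 with safener, against 1426, 809 and 896 with mock (log2 -1.29, SE 0.38, limma adjusted p = 0.0135). Safener replicate 2 lay inside the mock range. None of the 7 large subunit ribosomal protein genes was called in the full model, and 1 of them had an unadjusted p under 0.05. The polymerase genes did not move as 1: rpoC1 had log2 -0.66 and rpoB log2 0.39, with 585 on safener replicate 1 and 213 and 189 on the other safener arrays, against 239, 257 and 169.6 with mock. The safener arrays lay wholly below the mock arrays for 10 members and wholly above for 1, psbT, against 24.2% and 20.2% of all probe sets. psbA had log2 -2.02 over the 5 arrays that listed it (adjusted p = 0.316), and rbcL, at 35.4, 127 and 65.2 with safener against 77.0, 70.2 and 70.6 with mock, log2 -0.13.

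Other core genes of each complex were not called in Col0. psbB, for the CP47 antenna protein, was 1222, 2676 and 1567 with safener, against 2699, 1954 and 2029 with mock (log2 -0.35, adjusted p = 0.185). Cytochrome f (petA) had log2 -0.67 and petD, subunit IV of the same complex, 0.28, while atpB had -0.40 and ndhF -0.01. In the gene expression class, rpoA had log2 -0.42, rpoC2 -0.44 and rpl16, a large subunit protein, -0.77. accD, for the plastid subunit of acetyl-CoA carboxylase, was 602, 743 and 435 with safener, against 831, 577 and 530.0 with mock (log2 -0.13, adjusted p = 0.685). The adjusted p of each of these genes was above the threshold.

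**Figure D4:**
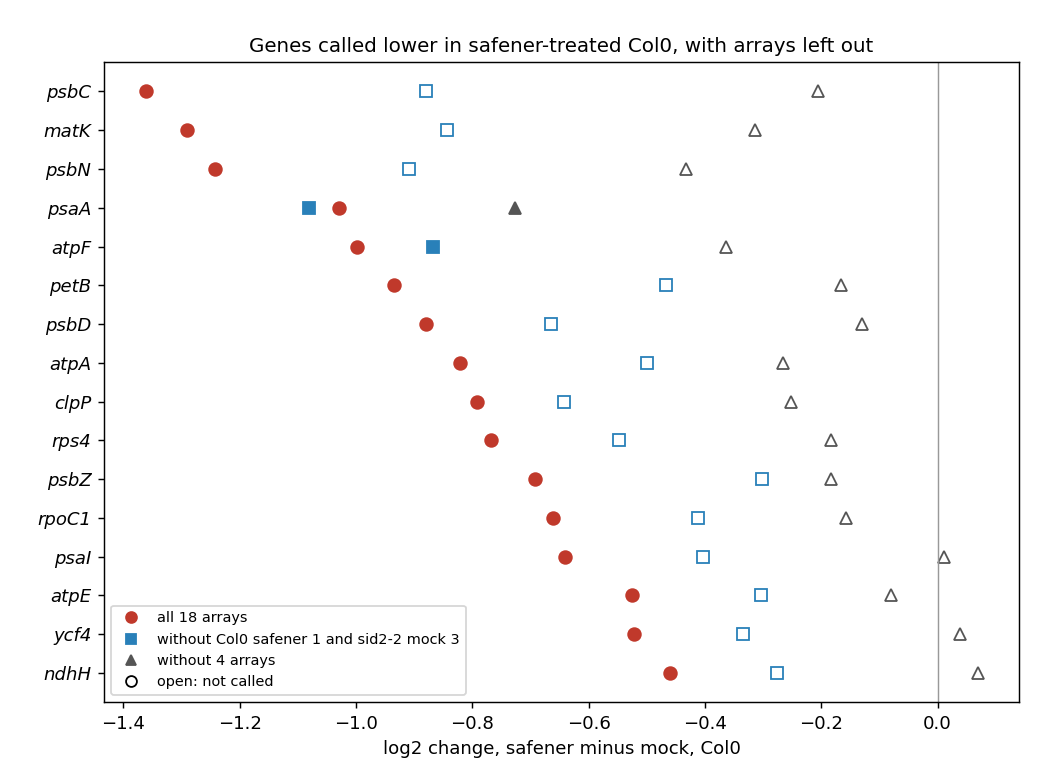
Log2 change, safener minus mock, of the 16 plastid genes called lower in Col0, with all 18 arrays (red circles), without Col0 safener 1 and sid2-2 mock 3 (blue squares) and without 4 arrays (grey triangles); filled symbols have an adjusted p under 0.05. psaA stays called in all 3, atpF in the first 2, and the others lie closer to zero with each step.

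In 4tga the safener response of the plastid genes was small. Of 69 members 0 were called in either direction (limma), where 8.81% of the 15195 probe sets tested were called higher and 10.3% lower, and 0 had an unadjusted p under 0.05. Members lay below zero in 62 of 69 cases, with a median log2 change of -0.15 (photosynthesis -0.14, gene expression -0.16), against -0.07 over all probe sets. No array of this comparison is among the 4 that stand apart. The smallest p-values were those of rpoC1, psaA and rps2 (a small subunit protein), none of them called. psaA was 1329.9, 1248 and 1511 on the safener arrays, against 1745, 1677 and 1758 on the mock arrays (log2 -0.35, SE 0.19, adjusted p = 0.212). Its safener arrays lay below its mock arrays, as they did for 9 members (13%) in all, against 28.7% of all probe sets. rpoC1 was 406, 379 and 578 with safener, against 527, 649 and 666 with mock (log2 -0.45, adjusted p = 0.189), and the groups overlapped.

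In sid2-2 the members leaned upward. Of 69 members 0 were called (limma), where 13% of the 15222 probe sets tested were called higher and 19.6% lower, and 0 had an unadjusted p under 0.05. The log2 change was above zero for 64 members, with a median of 0.18 (photosynthesis 0.17, gene expression 0.28), against -0.09 over all probe sets. The class medians were 0.06 and 0.08 without safener replicate 3, and 0.26 and 0.50 without safener replicate 1. Without sid2-2 mock replicate 3 and Col0 safener replicate 1 the medians were 0.17 for photosynthesis and 0.08 for gene expression members, and psaC alone was called (log2 0.56, adjusted p = 0.0494, where 16% of all probe sets were called higher), as it was without sid2-2 mock replicate 3 alone. psaC was 466, 411 and 432 on the safener arrays, against 304, 289 and 431 on the mock arrays. The smallest p-values with all arrays were those of ndhF, psaC and rps15. ndhF, for an NDH subunit, was 45.2, 48.2 and 59.3 with safener, against 37.8, 34.8 and 41.7 with mock (log2 0.41, adjusted p = 0.131), which is among the dimmest members. Safener arrays lay above mock arrays for 4 members, all photosynthesis genes (ndhF, ndhJ, ycf4 and ndhH), against 15.6% of all probe sets. Without the 4 arrays psbA, atpA and psaA were called higher, where 14.8% of all probe sets were, but psbA had served to choose those arrays. psaA was 964, 993 and 1458 with safener, against 812, 903 and 1371 with mock (log2 0.16, adjusted p = 0.554), and the groups overlapped.

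The difference of the safener response between a mutant and Col0 was read from the same model, and shares its arrays with the responses above. For 4tga 0 of 69 members were called, where 0.0412% of 14556 probe sets were called higher and 0.426% lower, and 3 members had an unadjusted p under 0.05. The median difference was 0.30, and -0.17 without the 4 arrays. For sid2-2 0 members were called, where 0.0207% were called higher and 0.0826% lower. In that contrast 28 members had an unadjusted p under 0.05, a count given, like the 3 for 4tga, without its share over all probe sets. The median difference was 0.65 with all arrays, 0.42 without the 2 arrays and 0.22 without the 4, and without Col0 safener replicate 2 or sid2-2 mock replicate 3 the count called higher was 4 and 1, where 0.043% and 0.0139% of all probe sets were. psaA had the smallest p in both, at 0.68 (SE 0.27, adjusted p = 0.476) for 4tga and 1.19 (SE 0.27, adjusted p = 0.114) for sid2-2. After psaA came atpA and matK for 4tga and matK and atpA for sid2-2, with adjusted p of 0.286 or more, and without Col0 safener replicate 1 and sid2-2 mock replicate 3 the difference of psaA for sid2-2 was 1.46 (adjusted p = 0.058). The fall of psaA in Col0 is therefore not shown to differ from the response of either mutant.

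**Figure D5:**
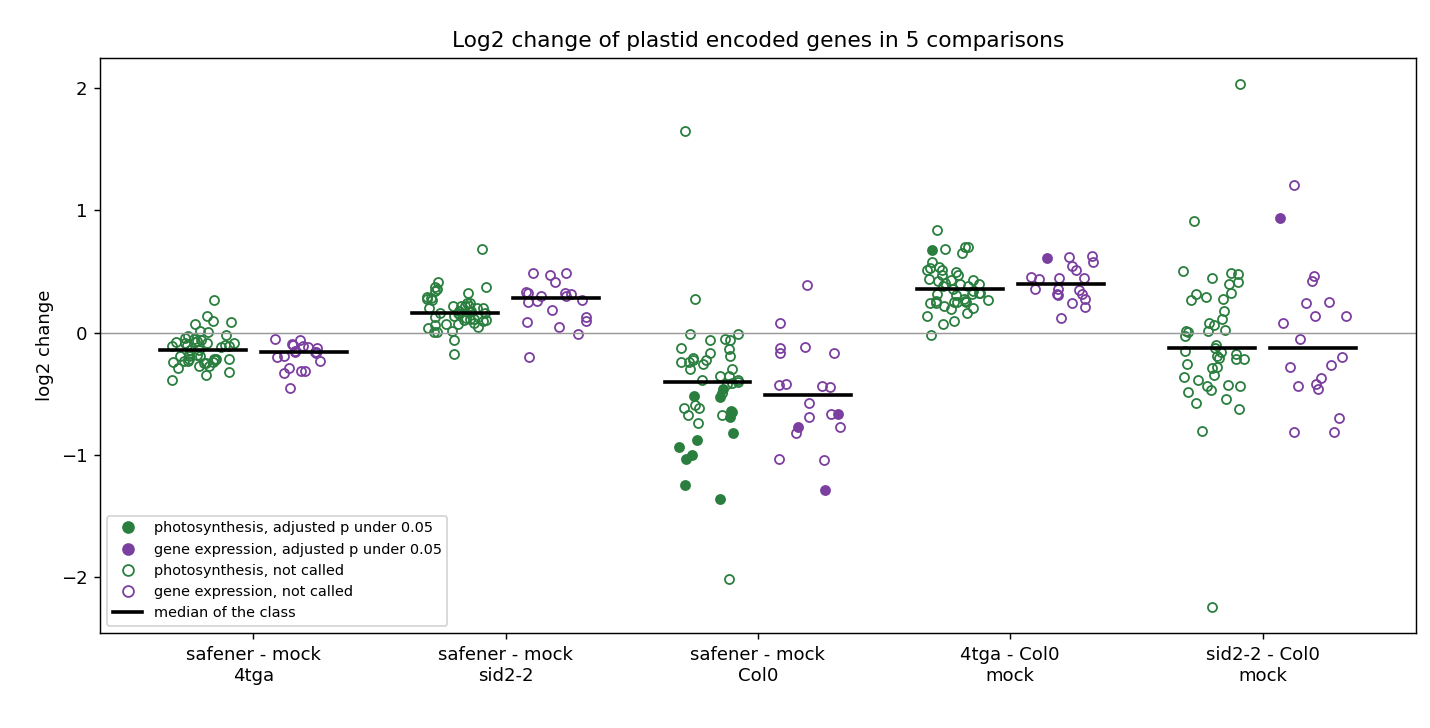
Log2 change of the 47 photosynthesis genes (green) and 20 gene expression genes (purple) in 5 comparisons; filled points have an adjusted p under 0.05, open points do not, and black lines are class medians. In each comparison both classes have medians on the same side of zero. The quartiles of gene expression genes lie closest together in the safener response of 4tga (-0.24 and -0.11). Those of photosynthesis genes do so in the safener response of sid2-2 (0.10 and 0.24, against -0.23 and -0.06 in 4tga).

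Mock-treated 4tga leaves were compared with mock-treated Col0 leaves, which asks what the missing TGA factors change without safener. Nearly all plastid genes lay slightly higher in the mutant, and few passed the test. The log2 change was above zero for 68 of 69 members, with a median of 0.36 (photosynthesis 0.36, gene expression 0.40) and quartiles of 0.26 and 0.50, against a median of 0.07 over all probe sets. All 4tga arrays lay above all Col0 arrays for 38 members (55.1%), 28 of them photosynthesis and 10 gene expression genes, against 21.8% of all probe sets. For 0 members did they lie wholly below, against 8.12%. With each array centred on the median of the probe sets listed throughout, the medians of both classes were above zero too, at 0.29 for photosynthesis and 0.33 for gene expression.

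Most of these differences did not pass the test. Of 69 members 2 were called higher and 0 lower (limma), where 6.04% of 15018 probe sets were called higher and 1.77% lower. An unadjusted p under 0.05 was found for 14 members, a count given without its share over all probe sets. psbI, a small photosystem II subunit, was 1400.1, 1255 and 1060.3 on the 4tga arrays, against 734, 809 and 764 on the Col0 arrays (log2 0.68, SE 0.18, 1.60-fold, adjusted p = 0.0205). rpl32, a large subunit ribosomal protein, was 1406, 1476 and 1379.6 in 4tga, against 1046, 872 and 874 in Col0 (log2 0.61, SE 0.17, adjusted p = 0.0337). In both the genotypes were clearly apart, but the calls were lost in most fits with 1 array left out: for psbI without Col0 mock replicates 1 or 3 or 4tga mock replicates 1 or 2 (adjusted p of up to 0.0908), and for rpl32 without any of the 6 arrays except Col0 mock replicate 1 (up to 0.123). The count called was 4, 1 and 0 without Col0 mock replicates 1, 2 and 3, and 0, 1 and 1 without 4tga mock replicates 1, 2 and 3. Of all probe sets, 5.85%, 3.51% and 4.09% were called higher without the Col0 replicates and 4.5%, 4.42% and 3.27% without the 4tga replicates.

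None of the 6 arrays of this comparison is among the 4 that stand apart, yet those 4 enter the shared estimate of the spread. The 4 were chosen on psbA, itself a member, so leaving them out can lower the spread of the members by that choice. Calls gained in that way, psbA among them, are no separate support for a difference. Without Col0 safener replicate 1 and sid2-2 mock replicate 3 the values of the comparison are the same and 4 members were called higher (rpl32, psbI, atpH and psbH), where 8.97% of all probe sets were. With only the 6 mock arrays of 4tga and Col0 in the fit 17 were called, where 7.25% of all probe sets were called higher. Without the 4 arrays 21 were called higher, 14 photosynthesis and 7 gene expression genes, with log2 changes between 0.32 and 0.84, where 9.3% of all probe sets were. Those included atpH, the ring subunit of the ATP synthase, at 1648, 1709 and 1889 in 4tga, against 1267, 1000.5 and 980.2 in Col0 (log2 0.70, adjusted p = 0.000926 without the 4 arrays and 0.165 with all). psaA was 1745, 1677 and 1758 in 4tga, against 1209.8, 1290.3 and 1166 in Col0 (log2 0.50, adjusted p = 0.121 with all arrays). rps19 was 1157, 1213 and 1236 in 4tga, against 917, 933 and 964 in Col0 (log2 0.36).

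Other RNA without a stable poly(A) tail was looked at in this comparison too. The control for 5S ribosomal RNA was at 7.56, 8.02 and 7.32 (log2) on the 4tga mock arrays, against 6.18, 6.07 and 5.21 on the Col0 mock arrays. The same control did not follow the members elsewhere. It was at 5.96, 7.91 and 9.24 on the sid2-2 mock arrays, where the members had a median log2 change of -0.12 against Col0. Its lowest listed value, 5.01, was on sid2-2 safener replicate 3, where 59 members lay above their own median and 10 below. Of the genes of the mitochondrial genome, whose messengers likewise lack a stable tail, 2 of 12 probe sets tested were called higher and 0 lower. Of all probe sets 6.04% and 1.77% were. The 2 were annotated to nad1 (log2 0.81 and 0.85), and the median log2 change over the 12 was 0.55. Without Col0 safener replicate 1 and sid2-2 mock replicate 3, 5 were called higher, where 8.97% of all probe sets were. Nuclear genes for the light reactions were not shifted to that extent: of the 8 with an annotated probe set, of 49 on the list, 0 were called, with a median of 0.09. The part of the priming, of total RNA makeup or of leaf state in the plastid difference was not tested.

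Mock-treated sid2-2 leaves gave no shift common to the members when set against mock-treated Col0 leaves. The log2 change was above zero for 31 members and below for 38, with a median of -0.12 for all members, for photosynthesis genes -0.12 and for gene expression genes -0.13, against 0.11 over all probe sets. Without sid2-2 mock replicate 3 and Col0 safener replicate 1 these were 0.02, -0.05 and 0.18. Of 69 members 1 was called higher and 0 lower (limma), where 17.3% and 5.37% of the 15002 probe sets tested were. That gene was rps14, a small subunit protein, at 310.5, 386 and 729 in sid2-2, against 309, 239 and 168 in Col0 (log2 0.94, SE 0.30, adjusted p = 0.0319). The highest value was that of sid2-2 mock replicate 3, and the call was lost without it (log2 0.58, adjusted p = 0.198), without Col0 mock replicate 2 (0.0741) and without Col0 mock replicate 3 (0.142). The count was 4 and 2 without sid2-2 mock replicates 1 and 2, where 20.4% and 13.8% of all probe sets were called higher.

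All sid2-2 mock arrays lay below all Col0 mock arrays for 10 members, 8 of them photosynthesis genes, a class that makes up 47 of the 69 members, against 9.21% of all probe sets, and above for 5, against 26.9%. atpA was 1214, 1113 and 941 in sid2-2, against 1747, 1476 and 1628 in Col0 (log2 -0.57, SE 0.25, adjusted p = 0.101). psaA was 812, 903 and 1371 in sid2-2, against 1209.8, 1290.3 and 1166 in Col0, with replicate 3 above the Col0 arrays and replicates 1 and 2 below them. Without the 4 arrays psaA, atpA and psbA were called lower and psbT higher, where 5.89% and 12.7% of all probe sets were, with psaA at log2 -0.51 (adjusted p = 0.0183) and atpA at -0.47 (adjusted p = 0.0217). psbA had served to choose those arrays.

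Genes outside the plastid genome gave a partial comparison. They were nuclear genes that serve the same processes, and genes of the mitochondrial genome, which do not. In Col0, 3 of the 8 measured nuclear genes for the light reactions fell with safener and 0 rose. Of all probe sets 17.3% were called lower and 14.9% higher. The median log2 change of the 8 was -0.20. Those that fell were LHCB4.2 (AT3G08940), an antenna protein (log2 -0.73, limma adjusted p = 0.000962), PSAN (AT5G64040) of photosystem I (log2 -0.32, adjusted p = 0.0155) and ATPC1 (AT4G04640), the ATP synthase gamma subunit (log2 -0.26, adjusted p = 0.0424). Without Col0 safener replicate 1 and sid2-2 mock replicate 3, ATPC1 was not called (adjusted p = 0.116). In 4tga 0 of the 8 were called (median -0.13), where 8.81% of all probe sets were called higher and 10.3% lower. In sid2-2 1 was called lower, PSBW (AT2G30570, a photosystem II subunit, log2 -0.24, limma adjusted p = 0.0457), where 19.6% of all probe sets were. The median of the 8 there was -0.16. Without the 2 arrays PSBW was not called in sid2-2 (adjusted p = 0.138) and LHCB4.2 was (adjusted p = 0.0122). Of 12 mitochondrial probe sets, 5 were called higher and 0 lower with safener in sid2-2 (median 0.63), where 13% of all probe sets were called higher. Without the 2 arrays 4 were called higher, where 16% of all probe sets were. With all arrays, the other 7 ran from log2 -0.44 (a probe set for nad1) to 0.67 (nad4L). The called ones were led by cox2 (cytochrome oxidase subunit, log2 1.71, adjusted p = 3.63e-05), nad6 (log2 0.85) and nad1 (log2 1.05). In Col0 2 of 10 were called higher with safener, nad6 (log2 0.95) and cox2 (log2 0.66), where 14.9% of all probe sets were. The median of the 10 was -0.05. In 4tga 0 of 12 were called higher, where 8.81% of all probe sets were, with a median of -0.12. In mock sid2-2 leaves against mock Col0 leaves, 1 of the 8 nuclear light reaction genes was called higher, LHCB4.3 (AT2G40100, log2 0.999, adjusted p = 0.000997). Of 12 mitochondrial probe sets 3 were called higher and 0 lower, where 17.3% and 5.37% of all probe sets were. The 3 were nad6 (log2 0.83) and 2 for nad1 (log2 0.68 and 0.45). The median over the 12 was 0.03, and the other probe sets for nad1 lay at -0.30 and -0.19. Without the 2 arrays nad6 stayed called (limma adjusted p = 0.0113), and cox2 was called too (0.0456, against 0.153 with all arrays). Both nad1 calls were then lost (adjusted p = 0.136 and 0.156). The nuclear genes for plastid transcription had 1 measured member, and those for plastid RNA turnover and ribosomes were not analysed here.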

How the data were processed

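RNA from rosette leaves was hybridised to 18 Affymetrix ATH1 arrays, 3 for each of 6 groups of genotype and spray, as the sample labels give them. The deposited values are linear intensities that the authors made with RMA, per the submitters' processing notes. Their background settings and the probe annotation used are not given in the sources used here. Of the 22810 probe sets 64 array controls were left out. Of all values 31.47% were blank and were left missing, and the authors' rule for blanks is not given in the sources used here. Log2 of the deposited intensity was fitted with limma 3.58.1 in R 4.3.3 as a mean for each of the 6 groups, which share 1 estimate of the spread, and 7 contrasts were tested wherever each group had at least 2 listed values (1 where a group was left with 1 array). Benjamini-Hochberg adjustment ran over all probe sets tested in a contrast, and an adjusted p under 0.05 was a call. The model was tested on simulated data with independent noise for each probe set and no outlying arrays. That test does not cover deviations shared by the members on an array, as seen here. The labels call the 3 samples of a group biological replicates, and p-values measure the spread between these samples.

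Genes came from the platform annotation: 13513 probe sets had 1 gene, 503 several and 8730 none listed. Symbols and gene order came from the RefSeq table of assembly TAIR10.1, whose coordinates are not printed since the files name no build. The members, their classes and all lists were chosen with earlier results of these data known. Named were a fixed list of core genes of each complex, the brightest member of each subgroup, up to 6 called members a direction and contrast, the 3 of smallest p where none was called, and up to 3 called genes of each comparison list. Members named beyond this, among them psbT, rps19, rps18, psbN, atpH, psbH and the further called genes, were chosen after their values were seen. Replicate numbers recur in all groups, but residuals of the 45 same-numbered pairs correlated between -0.41 and 0.46 (median -0.01, 14 pairs over 0.1), so they were not taken as pairs. Alternatives were array weights, only the arrays compared, other scalings, other filters, a replicate block, and arrays left out singly, 2 together and, chosen after seeing the data, the 4 with the lowest or blank psbA.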

Additional observations from a re-analysis of the deposited data

How the results depend on the processing

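The class difference of a group moved by less than the spread between arrays (SD 0.20) in 27 of 29 cases with another scaling, filter or several arrays left out, and in 17 of 18 with 1 array left out. The exceptions were all sid2-2 mock, at 0.36 without replicate 3, whether alone, with Col0 safener replicate 1 or among the 4 arrays, and its leave-one-out values ran from 0.36 to 0.70. Without Col0 safener replicate 1 and sid2-2 mock replicate 3 together, members called lower with safener in Col0 numbered 2, where 13.7% of all probe sets were. Members called higher were 1 with safener in sid2-2 (16% of all probe sets), 4 in mock 4tga (8.97%) and 0 in mock sid2-2 (13%). The gene expression median of the response difference of sid2-2 was then 0.25. Without the 4 arrays chosen after seeing the data, Col0 had 1 member higher and 1 lower, with medians of -0.0045 (photosynthesis) and -0.0202 (gene expression), and ndhH, psaI and ycf4 turned to 0.0688, 0.0114 and 0.0394. Safener in sid2-2 then had 3 higher, the response differences had medians of -0.17 and -0.16 for 4tga and 0.23 and 0.15 for sid2-2, mock 4tga had 21 higher and mock sid2-2 3 lower. With only the arrays compared in the fit, Col0 had 1 higher and 8 lower, where 12.8% and 11.9% of all probe sets were. In that setting 4tga had 1 lower (16.3% of all probe sets), mock 4tga 17 higher (7.25%) and mock sid2-2 2 lower (3.3%). With array weights, Col0 had 1 higher and 36 lower, where 22.4% and 29.2% of all probe sets were. Under these weights 4tga had 1 lower (20.1% of all probe sets) and sid2-2 2 higher (18.7%). The response differences had 1 (4tga, 0.872% of all probe sets) and 4 (sid2-2, 0.53%) higher, with a gene expression median of 0.37 for sid2-2. Mock 4tga had 24 higher (14.8%), and mock sid2-2 10 higher (32.6%) and 3 lower (11.5%). Quantile normalization left 1 call in mock 4tga, where 6.44% of all probe sets were called higher. Centring left 1 there and 0 in mock sid2-2, where 4.35% and 10.5% of all probe sets were called higher. With blanks at the lowest value and no filter, Col0 had 2 lower, where 9.13% of all probe sets were. Both mock comparisons then had 0 higher, where 2.59% (4tga) and 9.16% (sid2-2) of all probe sets were. Leaving out 1 array at a time gave 1 to 39 members lower in Col0 (11.7% to 20.7% of all probe sets). It gave 0 to 1 higher with safener in sid2-2 (10.2% to 14.8%). Members called higher were 0 to 4 in each of the response difference of sid2-2 (0% to 0.043%), mock 4tga (3.27% to 5.85%) and mock sid2-2 (9.94% to 20.4%). The photosynthesis median of the response difference of 4tga ran from 0.14 to 0.57 in these fits. psbA with safener in sid2-2 turned to -1.25 without sid2-2 mock replicate 3 (alone or with Col0 safener replicate 1), -0.96 with array weights, -0.11 without safener replicate 2 and -0.18 without safener replicate 3, and its leave-one-out values ran from -1.25 to 2.35. With the replicate block 14 members were lower in Col0, where 17.1% of all probe sets were. The block changed no other count of calls (2 higher in mock 4tga, 1 in mock sid2-2, where 5.49% and 16.5% of all probe sets were). Over all probe sets, centring changed the calls in mock 4tga to 653 higher and 435 lower (907 and 266 as reported), in mock sid2-2 to 1573 and 1326 (2596 and 805), and with safener in 4tga to 1577 and 1431 (1338 and 1562). The causes of these changes were not tested. With 3 arrays a group and members that vary more between arrays than most probe sets, small changes could not be called.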

Other observations

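The 7 probe sets annotated to both copies of a duplicated plastid gene, which were not members, set the same arrays apart. Their median deviation from their own median was -1.17 (log2) on Col0 safener replicate 1, -1.07 on sid2-2 mock replicate 3 and -0.74 on sid2-2 safener replicate 1, while Col0 safener replicate 3 was at -0.25 and the other arrays lay between -0.12 and 0.27. In mock sid2-2 leaves against mock Col0 leaves, 2 of the 7 were called higher and 0 lower (limma), where 17.3% and 5.37% of all probe sets were. Their median log2 change was -0.52. On sid2-2 mock replicate 3 the deviations of the 7 ran from -2.51 to 1.05, and the calls were not examined without that array. In the other 6 contrasts 0 of the 7 were called.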
